A study of Rattus norvegicus with 10 samples.

Results

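Heat shock proteins and chaperones were measured in the fetal rat kidney as all array probe sets whose single gene symbol belonged to the Hsp70, Hsp110, J-protein, small heat shock protein, chaperonin, Bag, calnexin, calreticulin or protein disulfide isomerase families. The symbol rule found 95 probe sets for 74 genes among the 15923 probe sets of the array, and used no measured value. The first group was 5 kidney samples of growth-restricted fetuses whose Wistar mothers carried a slow-release insulin implant (hyperinsulinemic, replicates 6 to 10). The other 5 samples came from fetuses of untreated mothers (normal, replicates 1 to 5), whose strain the labels do not give. All mothers were on a regular diet, and all fetuses were at day 22 of gestation. The implant was a 2 mm segment given to mothers of 200 to 280 g before and again after mating. Each sample was total RNA of whole kidney on 1 array, so fewer cells of a type and less RNA per cell cannot be told apart. Litter, mother and fetal sex are not given in the labels, so the p-values measure only the spread between these samples.

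Chaperones bind unfolded proteins and help them reach their folded shape, or hold them until they can be refolded or degraded. In the cytosol, Hsp70 proteins do this in cycles of ATP use that J-proteins start. Hsp110 and several Bag proteins end these cycles by exchanging the nucleotide. Small heat shock proteins hold unfolded proteins without using ATP, and the ring of Cct subunits with Tcp1 folds actin and tubulin inside a closed chamber. Mitochondria have their own Hsp70 (Hspa9) and chaperonin (Hspd1 with its lid Hspe1). In the endoplasmic reticulum, Hspa5, calnexin, calreticulin and the disulfide isomerases fold secreted and membrane proteins, and the unfolded protein response raises them when unfolded proteins gather. Heat shock factor 1 drives the cytosolic stress-inducible members. The small heat shock protein Cryab, known from the eye lens and muscle, is also abundant in the renal medulla.

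Promoter sequences were available from RefSeq (GRCr8 assembly, 250 bases before to 50 after the gene start) for 61 of the 74 genes, in 63 promoters. They were searched on both strands for the heat shock element, as GAANNTTCNNGAA or TTCNNGAANNTTC, for the endoplasmic reticulum (ER) stress response element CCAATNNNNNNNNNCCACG, and for its second form ATTGGNCCACG. The heat shock element was found in 5 of the 63 promoters (Dnaja1, Hspd1, Hspe1, Hsph1 and Cct4), and in 0.798% of all 33469 promoters in the table. The ER stress response element was found in 4 (Hspa5, Canx, Dnajc3 and Calr), against 0.0657% of all promoters, and its second form in Hyou1 and Dnajb11, against 0.0508%. A match describes the letters only. The stretches below show the matches to these elements, through which heat shock factor 1 and the unfolded protein response are known to act. Only these letters in this window were searched. A member without a match, or without a promoter here, may therefore still hold such an element. The stretch of Hyou1, which holds 2 matches of the second form, is not printed. Capitals mark the match, which lies on the opposite strand where it reads as the reverse complement.
Hsph1, chr12:10427312-10427364, plus strand: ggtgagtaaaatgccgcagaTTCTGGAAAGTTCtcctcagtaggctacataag
Dnaja1, chr5:60638393-60638445, plus strand: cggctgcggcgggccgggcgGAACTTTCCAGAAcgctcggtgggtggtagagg
Cct4, chr14:101193062-101193106, plus strand: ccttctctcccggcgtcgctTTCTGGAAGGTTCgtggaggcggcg
Hspd1, chr9:64084242-64084287, minus strand: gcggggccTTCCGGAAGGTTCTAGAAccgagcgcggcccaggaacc
Hspe1, chr9:64084242-64084299, plus strand: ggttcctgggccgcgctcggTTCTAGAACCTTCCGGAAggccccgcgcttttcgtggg
Hspa5, chr3:38452953-38453011, plus strand: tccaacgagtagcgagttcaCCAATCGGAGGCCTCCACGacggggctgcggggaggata
Canx, chr10:35158049-35158107, minus strand: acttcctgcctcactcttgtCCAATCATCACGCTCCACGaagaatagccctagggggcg
Dnajc3, chr15:102432514-102432572, plus strand: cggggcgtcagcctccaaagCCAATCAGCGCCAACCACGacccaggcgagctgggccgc
Calr, chr19:40213117-40213173, plus strand: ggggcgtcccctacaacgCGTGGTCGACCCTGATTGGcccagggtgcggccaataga
Dnajb11, chr11:91672780-91672830, minus strand: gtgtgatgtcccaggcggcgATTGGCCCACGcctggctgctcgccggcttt

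Hspd1 and Hspe1 lie head to head, on the minus and the plus strand of chromosome 9, and their promoter windows share 211 of 300 bases. The same pair of overlapping heat shock elements is therefore printed for both, read from opposite strands. The matches of the other 3 heat shock element promoters lie close to the gene start. In Hsph1 the match begins 36 bases before the start, and in Dnaja1 and Cct4 it begins shortly after the start.

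No chaperone probe set passed the test between hyperinsulinemic and normal kidneys. Testing needed a signal at or above the 40th percentile of the array in 5 or more samples, which held for 72 of the 95 probe sets and for 61 of the 74 genes. By limma with Benjamini-Hochberg adjustment over all 9601 tested probe sets, 0 of the 72 had an adjusted p under 0.05, beside 0.0104% of all tested probe sets. At an unadjusted limma p under 0.05 there were 3 of 72, or 4.17%, beside 5.36% of all tested probe sets. Of these 1 was higher (Dnajc27), beside a background of 2.44%, and 2 were lower (Cryab and 1 of the probe sets of Dnajc10), beside 2.93%. In 0 of the 72 probe sets were all arrays of one group above all arrays of the other, beside 1.04% of all tested. All these shares are near or below the background.

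The intervals show how large a difference the arrays could still hold. The 95% interval of the log2 difference lay within 0.5 on both sides of 0 for 68 of the 72 probe sets, or 94.4%, beside 96.8% of all tested. The exceptions were Dnajc1, Dnajc24, Hspbap1 and the Dnajc10 probe set named above, and the widest bound was 0.68 (Hspbap1). Where 1 probe set stood for a gene (that with the highest mean signal over all arrays), the differences on the log2(signal + 16) scale ran from −0.28 (Cryab) to 0.33 (Hspbap1), with a median of 0.03 over 61 genes. The median over all 7267 tested genes was 0.00. The median residual SD was 0.14 for chaperone genes and 0.13 for all tested genes.

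**Figure D1:**
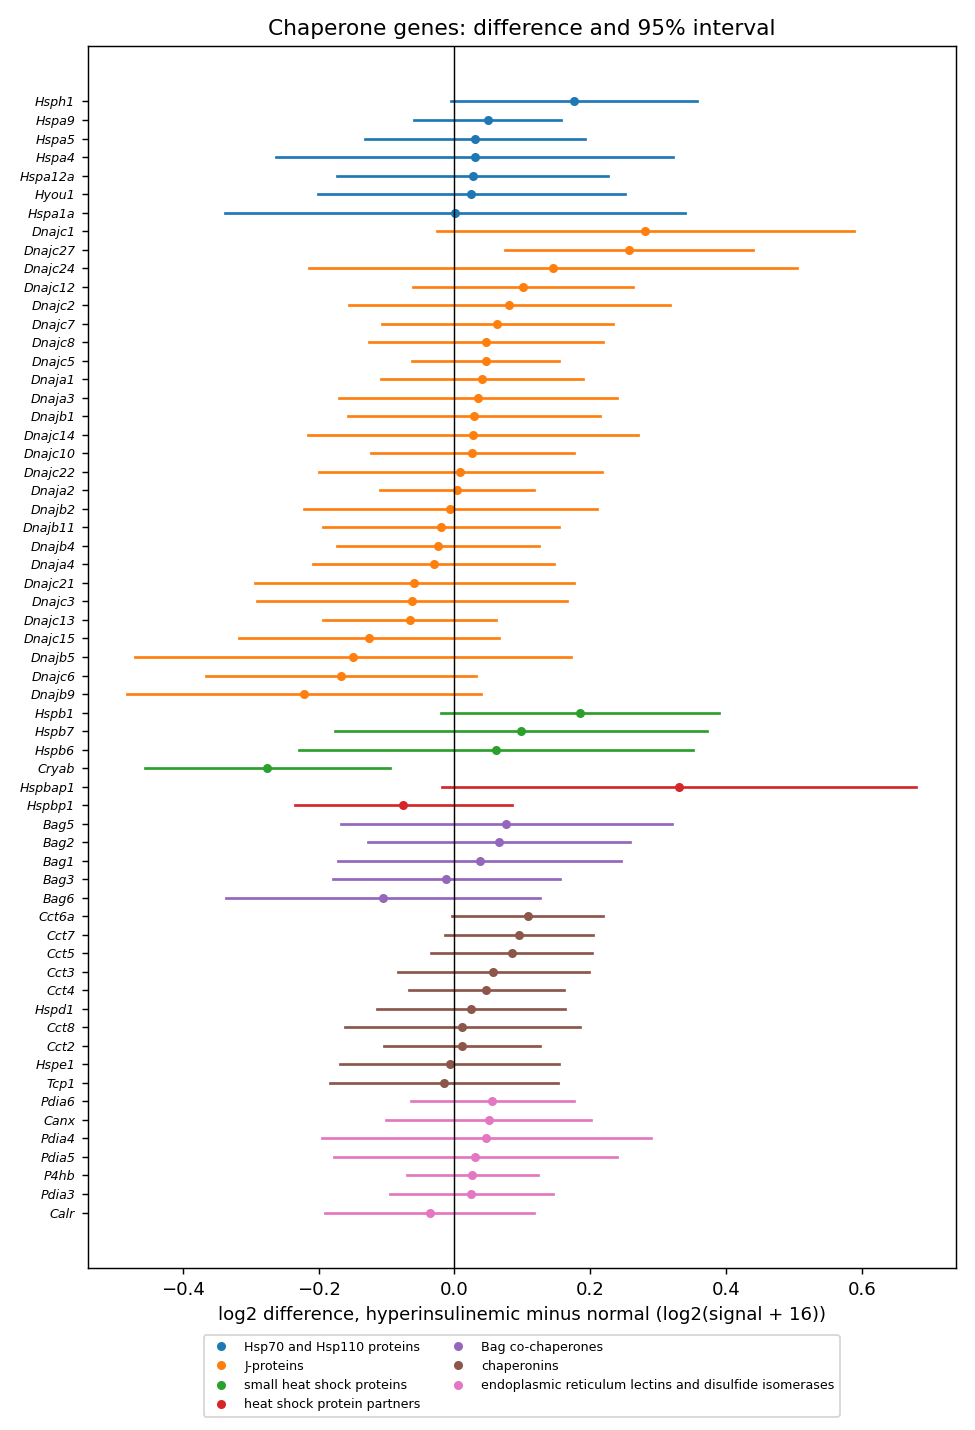
Log2 difference, hyperinsulinemic minus normal, with its 95% limma interval for the 61 tested chaperone genes, grouped by role (colour) and ordered by size within a role. Points spread on both sides of 0 between −0.28 and 0.33, and of the genes shown only Cryab and Dnajc27 have an interval that does not include 0.

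More differences lay above 0 than below. This held for 48 of the 72 probe sets, or 66.7%, beside 50.9% of all tested, and for 43 of the 61 genes, beside 3740 of all 7267 tested genes. The count moved with the arrays and the setting. Leaving out 1 array gave 37 (hyperinsulinemic replicate 6) to 44 (hyperinsulinemic replicate 7) of the 61 genes above 0. Without hyperinsulinemic replicate 9 or 10 it was 38, so the fall was not particular to replicate 6. It was 37 with a liver marker score as covariate, 34 with array weights and 33 without the 2 arrays with the most albumin signal. With the arrays shifted to a common median it stayed at 43. Hyperinsulinemic replicate 6 had the highest signal of all 10 arrays for 17 of the 72 chaperone probe sets, or 23.6%, beside 15.2% of all tested probe sets. Members of 1 sample share its RNA, so the direction of the genes is not 61 separate observations, and it was not tested.

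The median signals were 130.4 to 137 in hyperinsulinemic and 133 to 137 in normal kidneys, after the scaling of every array to 1 mean. Hyperinsulinemic replicate 6 stood apart, at 19.5 on the first principal component, where the other arrays lay between −7.44 and 0.48. That array also had the most albumin signal (1742, against 84.9 to 436 on the other hyperinsulinemic arrays and 42.9 to 842 on normal arrays). Of 11 liver markers 8 were tested, 7 of them above 0, with sums of 1720 to 5595 in hyperinsulinemic and 1390 to 2990 in normal samples. Of 12 kidney markers 10 were tested, 5 of them above 0 and 5 below, and their sums were 10700 to 11560 in hyperinsulinemic and 9856 to 10936 in normal samples. All 8 stromal markers lay below 0, with a median log2 difference of −0.16 and sums of 9333 to 10887 in hyperinsulinemic and 10524 to 12450 in normal samples. All 3 tested erythroid markers lay above 0, with a median of 0.16 and sums of 5952 to 8001 in hyperinsulinemic and 5045 to 6500.2 in normal samples. None of the 7 adrenal markers and none of the 3 adipose markers on the array could be tested. The adrenal sum was 118 to 207 in hyperinsulinemic samples, against 973 in normal replicate 1 and 141 to 212 in the other normal samples. Of the remaining lists, 9 of 10 skeletal muscle markers fell below the filter. The 1 tested (Des, also in the smooth muscle list) lay above 0, at 0.32. The skeletal muscle sums were 406 to 540 in hyperinsulinemic and 389 to 453 in normal samples. Signal of Xist, the RNA that silences an X chromosome, was 42.4 to 70.5 in hyperinsulinemic and 0.8 to 2 in normal samples, so fetal sex and the mothers' treatment cannot be told apart. No chaperone gene here lies on chromosome X or Y. The part of these markers in any chaperone value was not tested.

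The Hsp70 and Hsp110 proteins differed little between the groups. Of their 11 genes 7 were tested, 0 passed the test, and all 7 lay above 0, between 0.00 and 0.18, with a median of 0.03. Without hyperinsulinemic replicate 6, and likewise without normal replicate 5, only 4 of the 7 lay above 0. Leaving out any other single array left 5 to 7 above 0. The other 4 genes (Hspa1l, Hspa2, Hspa12b and Hspa13) stayed below the filter.

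Hsph1, the cytosolic Hsp110 that exchanges the nucleotide of Hsp70, had the largest difference of this family. Its signals were 655, 569, 541, 553 and 633 in hyperinsulinemic samples, against 511, 596, 477, 446 and 582 in normal samples. The groups overlapped, with normal replicates 2 and 5 above the 3 lowest hyperinsulinemic samples. The means were 590.0 ± 50.6 in hyperinsulinemic and 522 ± 65.3 in normal samples (SD, n = 5 each), a log2 difference of 0.18 ± 0.08 (SE, limma adjusted p = 0.932).

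Hspa1a, the stress-inducible Hsp70 of the cytosol, had signals of 111, 216, 145, 176 and 174 in hyperinsulinemic samples, against 172, 180.3, 183, 108 and 175 in normal samples. The lowest arrays of the groups were hyperinsulinemic replicate 6 and normal replicate 4, and only normal replicate 4 stood far from the rest of its group. Both of these arrays had the most albumin signal of their group. Its log2 difference was 0.00 ± 0.16, with an interval from −0.34 to 0.34. The value moved with the setting: with the liver marker score as covariate it was 0.36 (limma adjusted p = 0.794), while without both albumin-rich arrays it was −0.01. Its near-identical copy Hspa1b was on the array only in a probe set with several symbols, which was left out. Likewise the constitutive Hspa8 and cytosolic Hsp90aa1 had no probe set with a single symbol, and no value is given for them.

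Hspa4, another Hsp110-type exchange factor, had 503 ± 35.4 in hyperinsulinemic and 505 ± 138 in normal samples (SD, n = 5 each), the normal samples ranging from 356 to 717. Hspa9, the mitochondrial Hsp70, had 1455 ± 75.2 in hyperinsulinemic and 1405 ± 46.2 in normal samples, a log2 difference of 0.05 ± 0.05. Of its 3 tested probe sets, 1 lay below 0, at −0.02. Hspa12a, a distant relative of Hsp70, had a log2 difference of 0.03 ± 0.09. The groups overlapped for all these genes.

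Hspa5 is the Hsp70 of the endoplasmic reticulum and the sensor-bound chaperone of the unfolded protein response. Its signals were 2018, 1749, 1584, 1570 and 1642 in hyperinsulinemic samples, against 1760, 1742, 1677, 1745 and 1443 in normal samples. Hyperinsulinemic replicate 6 was the highest of all arrays and normal replicate 5 the lowest, and the remaining samples overlapped. The means were 1712 ± 184 in hyperinsulinemic and 1673 ± 133 in normal samples (SD, n = 5 each), a log2 difference of 0.03 ± 0.08 (SE, limma adjusted p = 0.984). Without hyperinsulinemic replicate 6 the difference was −0.03. Hyou1, the Hsp110-type partner of Hspa5, had a log2 difference of 0.02 ± 0.10 in its brighter probe set and 0.12 ± 0.12 in the other.

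Among the below-filter members of the family, Hspa1l, an Hsp70 known mainly from the testis, had a signal of 23.4 in hyperinsulinemic replicate 6 and 1.6 to 3.1 in the other hyperinsulinemic samples, against 1.6 to 5.4 in normal samples. All these values lie well under the lowest 40th percentile of the arrays, 79.2, and were not tested. Hspa2, Hspa12b and Hspa13 had 7.3 to 69.6 in hyperinsulinemic and 6.3 to 76.8 in normal samples.

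The J-proteins, which hand unfolded proteins to Hsp70 and start its ATP use, were the largest family, with 43 probe sets for 31 genes. Of the 26 tested genes 0 passed the test, 15 lay above 0 and 11 below, with a median of 0.02 and a range from −0.22 (Dnajb9) to 0.28 (Dnajc1). Dnajb3, Dnajb12, Dnajb13, Dnajc4 and Dnajc17 stayed below the filter.

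Dnajc27, a small GTPase with a J domain, was the only chaperone probe set that was higher at an unadjusted p under 0.05. Its signals were 139, 156, 166, 130.2 and 139 in hyperinsulinemic samples, against 137, 116, 116, 111 and 117 in normal samples. Normal replicate 1 stood above the other normal samples and above hyperinsulinemic replicate 9, which was all the overlap there was. The means were 146 ± 14.4 in hyperinsulinemic and 119 ± 10.3 in normal samples (SD, n = 5 each), a log2 difference of 0.26 ± 0.09 (SE, limma adjusted p = 0.865). Because these arrays made all the overlap, leaving out either of them had to separate the groups, which adds no support. Over all alternatives the lowest adjusted limma p was 0.488.

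Dnajc10, a reductase of the endoplasmic reticulum with a J domain, was measured by 2 tested probe sets that differed. In the dimmer one the signals were 415, 380.4, 427, 543 and 469 in hyperinsulinemic samples, against 589.5, 562, 489.5, 648 and 415 in normal samples. Normal replicate 5 was as low as the hyperinsulinemic samples, and hyperinsulinemic replicates 8, 9 and 10 lay within the normal range. The means were 447 ± 62.2 in hyperinsulinemic and 541 ± 90.4 in normal samples (SD, n = 5 each), a log2 difference of −0.26 ± 0.11 (SE, limma adjusted p = 0.918). The brighter probe set had a log2 difference of 0.03 ± 0.07. This gap of 0.29 was the largest among the 9 chaperone genes with several tested probe sets, 5 of which had probe sets of opposite sign.

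Dnajc1, a J-protein of the endoplasmic reticulum membrane, had 153 ± 32.3 in hyperinsulinemic and 122 ± 22.2 in normal samples, with overlap. Its log2 difference was 0.28 ± 0.14 (SE, limma adjusted p = 0.934). Dnajb9, the J-protein of the endoplasmic reticulum that is a known target of Xbp1, had 134, 227, 229, 197 and 206 in hyperinsulinemic samples, against 274, 224, 224, 211 and 223 in normal samples. Hyperinsulinemic replicate 6 was the lowest of all arrays and normal replicate 1 the highest. The log2 difference was −0.22 ± 0.12 (SE, limma adjusted p = 0.941), and it was −0.10 without hyperinsulinemic replicate 6.

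Dnajc3, which restrains the kinase Perk in the same response, had 179, 133, 127, 116 and 118 in hyperinsulinemic samples, against 142, 143, 120.5, 148 and 145 in normal samples. Here hyperinsulinemic replicate 6 was the highest of all arrays, while the other 4 hyperinsulinemic samples lay below 4 of the 5 normal samples. This gave a log2 difference of −0.06 ± 0.11, and of −0.16 without that array (limma adjusted p = 0.866). Dnajb9 and Dnajc3 thus had opposite extremes on 1 array.

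The main cytosolic J-proteins Dnajb1, Dnaja1 and Dnaja2 were near 0 in the probe sets that stand for them. Dnajb1, the stress-inducible partner of Hspa1a, had log2 differences of 0.03 ± 0.09 and −0.02 ± 0.08 in its 2 probe sets. Dnaja1, whose promoter holds a heat shock element, had 0.04 ± 0.07 in the probe set that stands for it (means 1103 ± 67.6 in hyperinsulinemic and 1074 ± 102 in normal samples) and 0.15 ± 0.07 in the other (limma adjusted p = 0.933). Dnaja2 had 0.00 ± 0.05. Among other J-proteins, Dnajc5, the cysteine string protein of secretory vesicles, had 0.05 ± 0.05. Dnajc6, the auxilin that uncoats clathrin vesicles, had −0.17 ± 0.09 and Dnajc15, a J-protein of the mitochondrial inner membrane, had −0.13 ± 0.09, both with overlapping groups.

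**Figure D2:**
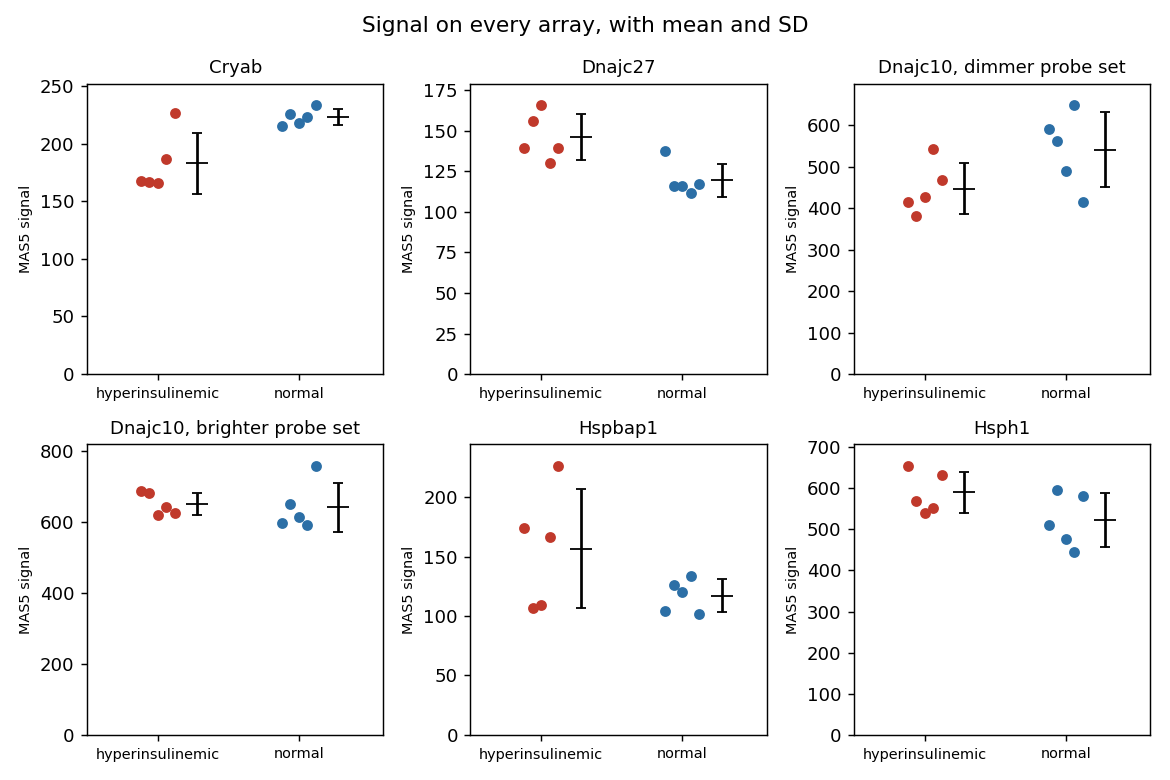
MAS5 signal on every array for Cryab, Dnajc27, both tested Dnajc10 probe sets (the dimmer first), Hspbap1 and Hsph1, with hyperinsulinemic samples (red, replicates 6 to 10) left of normal samples (blue, replicates 1 to 5); the bar is the mean with its SD. In each panel at least 1 sample of one group lies within the range of the other, as hyperinsulinemic replicate 10 does for Cryab at 227.

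Among the small heat shock proteins, which hold unfolded proteins without ATP, 4 of 7 genes were tested and 0 passed the test. Cryab lay below 0 and Hspb1, Hspb6 and Hspb7 above it. Hspb2, Hspb3 and Hspb8 stayed below the filter, with signals no higher than 55.3 in any sample.

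Cryab had the smallest p of all chaperones. Its signals were 167, 167, 166, 186 and 227 in hyperinsulinemic samples, against 216, 225, 218, 223 and 233 in normal samples. Of the hyperinsulinemic samples 4 lay below every normal sample, and replicate 10 lay inside the normal range. The means were 183 ± 26.1 in hyperinsulinemic and 223 ± 6.90 in normal samples (SD, n = 5 each), a log2 difference of −0.28 ± 0.08 (SE, limma adjusted p = 0.746). Hyperinsulinemic replicate 10 made all the overlap, so without it the groups could not overlap. The difference was then −0.35 and the limma adjusted p was 0.223, the lowest over all alternatives. With a liver marker score as a covariate the difference was −0.20 and the unadjusted limma p was 0.0667. Stromal markers lay below 0 in the same comparison, as given above, and 4 of the 5 tested smooth muscle markers did, with sums of 1919 to 2574 in hyperinsulinemic and 2138 to 2821 in normal samples. The 1 tested skeletal muscle marker lay above 0, and no marker list was made for the renal medulla. The part of these markers in the Cryab value was not tested.

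Hspb1, the widely expressed small heat shock protein that caps actin, had signals of 240.2, 189, 199, 237 and 271 in hyperinsulinemic samples, against 189.8, 197, 200.5, 221 and 175 in normal samples. The 3 highest values were hyperinsulinemic, and the other 2 hyperinsulinemic samples lay within the normal range. Hspb1 had a log2 difference of 0.19 ± 0.10 (SE, limma adjusted p = 0.941). Hspb6 had 0.06 ± 0.14 and Hspb7, a small heat shock protein known from heart muscle, 0.10 ± 0.13.

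The partners Hspbap1 and Hspbp1 pointed apart. Hspbap1, which binds Hspb1, had signals of 174, 107, 109, 167 and 226 in hyperinsulinemic samples, against 104, 126, 120.3, 134 and 102 in normal samples. Hyperinsulinemic replicates 6, 9 and 10 lay above all normal samples and the other 2 inside the normal range, so the group was split. Its log2 difference of 0.33 ± 0.16 was the largest of all chaperone genes (means 157 ± 49.99 in hyperinsulinemic and 117 ± 13.8 in normal samples, SD, n = 5 each; limma adjusted p = 0.933). Hspbp1, a nucleotide exchange factor of Hsp70, had −0.07 ± 0.08.

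Several of the Bag proteins release unfolded protein from Hsp70. All 5 Bag genes on the array were tested, 0 passed the test, 3 lay above 0 and 2 below, between −0.11 (Bag6) and 0.08 (Bag5), with a median of 0.04. Bag1 had 521 ± 92.3 in hyperinsulinemic and 503 ± 37.7 in normal samples. Bag3, the stress-inducible member and a partner of Hspb8, had 108 to 127 in hyperinsulinemic and 111 to 129 in normal samples, a log2 difference of −0.01 ± 0.08. Both probe sets of Bag6 lay below 0, at −0.11 and −0.12.

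The chaperonins enclose a protein in a chamber while it folds. All 10 genes were tested, 0 passed the test, and 8 lay above 0, with a median of 0.04 and a range from −0.01 (Tcp1) to 0.11 (Cct6a). Of the Cct ring with Tcp1, 7 of 8 subunits lay above 0, with a median of 0.05, and 0.04 without hyperinsulinemic replicate 6. The subunits assemble into 1 complex. This grouping was made after the values were seen.

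Cct6a had signals of 1214, 1109, 1155, 1138 and 1028 in hyperinsulinemic samples, against 1057, 1046, 1030.5, 1049 and 1044 in normal samples. The normal samples were tightly grouped, 4 of the 5 hyperinsulinemic samples lay above them all, and replicate 10 lay below them all. The means were 1129 ± 68.2 in hyperinsulinemic and 1045 ± 9.75 in normal samples (SD, n = 5 each), a log2 difference of 0.11 ± 0.05 (SE, limma adjusted p = 0.931). A dimmer probe set of the gene had −0.05 ± 0.09.

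Cct7 had 1369, 1258, 1269.8, 1191 and 1285 in hyperinsulinemic samples, against 1217, 1243, 1158, 1140.8 and 1199.6 in normal samples. Hyperinsulinemic replicate 9 was the one sample of its group within the normal range. Its log2 difference was 0.09 ± 0.05 (SE, limma adjusted p = 0.941). Cct5 had 0.08 ± 0.06, Cct3 0.06 ± 0.07, Cct4, whose promoter holds a heat shock element, 0.05 ± 0.05, and Cct2 and Cct8 0.01 each.

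Tcp1, the subunit Cct1, had 2087, 2124, 2194, 2204 and 2868 in hyperinsulinemic samples, against 2228, 2368, 2239.6, 2486 and 2207 in normal samples. Hyperinsulinemic replicate 10 was the highest of all arrays, while the other 4 hyperinsulinemic samples lay below every normal sample. For Tcp1 the log2 difference was −0.01 ± 0.08, and −0.10 without that array (limma adjusted p over all alternatives no lower than 0.860). On the same array Cct6a was the lowest of all 10 samples. On hyperinsulinemic replicate 6 it was the reverse, with Tcp1 the lowest of all arrays and Cct2, Cct5, Cct6a and Cct7 each the highest.

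Hspd1 and Hspe1, the mitochondrial chaperonin and its lid, differed between the groups by less than the spread between samples. Hspd1 had 3768, 3187, 3129, 3161 and 3810.5 in hyperinsulinemic samples, against 3239, 3449, 3212, 3361 and 3444 in normal samples, a log2 difference of 0.02 ± 0.06. Hspe1 had 2464, 1887, 2333, 2123 and 2495 in hyperinsulinemic samples, against 2221, 2139.8, 2160.2, 2288 and 2507 in normal samples, a log2 difference of −0.01 ± 0.08. Hyperinsulinemic replicates 6 and 10 had the 2 highest Hspd1 signals and were 2 of the 3 highest for Hspe1, so the hyperinsulinemic group had the wider spread.

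The pair, which shares its promoter stretch, was set against each other over the 10 arrays. Pearson's r of the log2 values was 0.66 (permutation p = 0.0378, adjusted over the 4 pairs compared 0.151) and Spearman's rho was 0.54 (permutation p = 0.113, adjusted 0.451). Without hyperinsulinemic replicates 6 and 10, the arrays farthest from the median of Hspd1, r was 0.41 (permutation p = 0.327, adjusted 0.437). It was smaller but still above 0, and 8 arrays are too few to tell a weaker relation from none. Leaving out the arrays farthest apart also narrows the range over which r is taken. With each group centred on its mean, r was 0.67. The other 3 pairs were Hspa5 with Hsp90b1 (r = 0.38), Hspa5 with Hyou1 (r = −0.09) and Tcp1 with Cct2 (r = −0.10), with adjusted permutation p-values from 0.560 to 0.812 for Pearson's r. Leaving out the 2 farthest arrays in the same way gave 0.64, −0.30 and −0.51 for these pairs, with adjusted permutation p-values from 0.370 to 0.451.

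**Figure D3:**
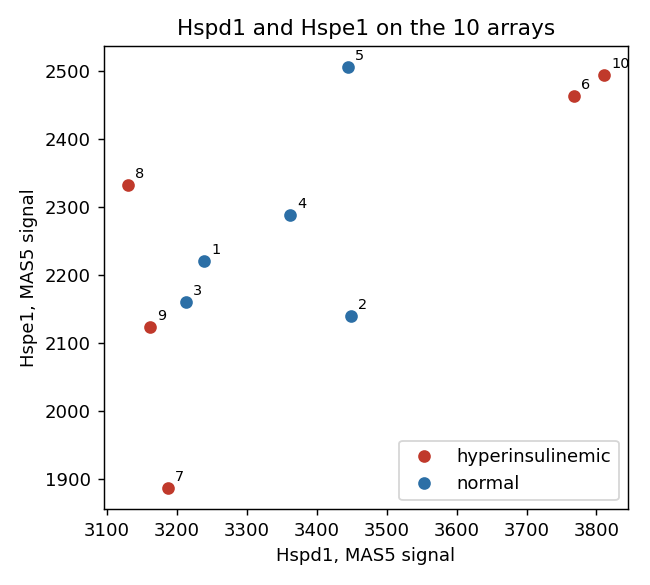
Hspe1 signal against Hspd1 signal (both MAS5 signal, axes not from 0) on the 10 arrays, hyperinsulinemic red and normal blue, each point labelled with its replicate number. Hyperinsulinemic replicates 6 and 10 lie at the upper right, and the other 8 arrays scatter more widely.

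Lectins and disulfide isomerases of the endoplasmic reticulum were likewise near 0. Of 8 genes 7 were tested (Pdia2, known from the pancreas, was below the filter), 0 passed the test, and 6 lay above 0, with a median of 0.03 and a range from −0.04 (Calr) to 0.06 (Pdia6). Without hyperinsulinemic replicate 6 or 7 only 4 of the 7 lay above 0, with medians of 0.01 and 0.02. Without hyperinsulinemic replicate 10 all 7 did, with a median of 0.06. With the liver marker score as covariate 3 did, with a median of −0.02. Canx, the membrane lectin calnexin, had 2041, 1602, 1651, 1633 and 1614 in hyperinsulinemic samples, against 1609.5, 1776, 1617, 1512 and 1708 in normal samples. Hyperinsulinemic replicate 6 stood above all others and the remaining samples overlapped. The log2 difference was 0.05 ± 0.07 (SE, limma adjusted p = 0.974), and −0.01 without that array.

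Calr, the soluble lectin calreticulin, had 1942, 1605, 1648, 1546 and 1473 in hyperinsulinemic samples, against 1531, 1713, 1614, 1787 and 1756 in normal samples. Again hyperinsulinemic replicate 6 was the highest. Its log2 difference was −0.04 ± 0.07, −0.10 without that array and −0.17 with the liver marker score as covariate (limma adjusted p = 0.951), where its unadjusted p was under 0.05. Pdia4, a disulfide isomerase that rises in the unfolded protein response, had 1217, 1052, 769, 800.3 and 769 in hyperinsulinemic samples, against 863, 900.0, 791, 903 and 927 in normal samples. Hyperinsulinemic replicates 6 and 7 lay above all normal samples, replicates 8 and 10 below them all, and replicate 9 among them. The mean log2 difference was 0.05 ± 0.11. P4hb, the main disulfide isomerase, varied least, with 2475 ± 66.6 in hyperinsulinemic and 2430 ± 81.0 in normal samples and a log2 difference of 0.03 ± 0.05. Pdia3, Pdia5 and Pdia6 had 0.02, 0.03 and 0.06.

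The 13 endoplasmic reticulum chaperones were also read together, a grouping made after the values were seen (Hspa5, Hyou1, Dnajb9, Dnajb11, Dnajc3, Dnajc10, Calr, Canx, P4hb, Pdia3, Pdia4, Pdia5 and Pdia6). Their median log2 difference was 0.03, with 9 above 0. Measured from the normal mean, the median over the 13 genes was 0.18 in hyperinsulinemic replicate 6, and −0.00, −0.02, −0.01 and −0.03 in replicates 7 to 10, against 0.02, 0.03, −0.04, 0.01 and 0.05 in normal replicates 1 to 5. For these 13 genes a single hyperinsulinemic sample was thus high, and the other 4 lay within the normal range. That sample, replicate 6, was the highest of all 10 arrays for 8 of the 13 genes, beside 15.2% of all tested probe sets. Without it the median was −0.01. Its height was not particular to this compartment. The same measure in replicates 6 and 10 was 0.11 and 0.10 for the Cct ring with Tcp1. For the mitochondrial chaperones (Hspa9, Dnaja3, Hspd1 and Hspe1) it was 0.14 and 0.17. Dnajc1, also of this compartment, was not among the 13, and with it added, likewise after the values were seen, the median over 14 genes was 0.03, and −0.01 without that array. As given above, this is the array with the most albumin signal and a liver marker sum of 5595. Normal replicate 4, the normal array with the most albumin signal, had a liver marker sum of 2990 and a median over the 13 genes of 0.01. With the liver marker score as covariate, 4 of the 13 genes lay above 0, with a median of −0.02. The part of liver RNA in these values was not tested.

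**Figure D4:**
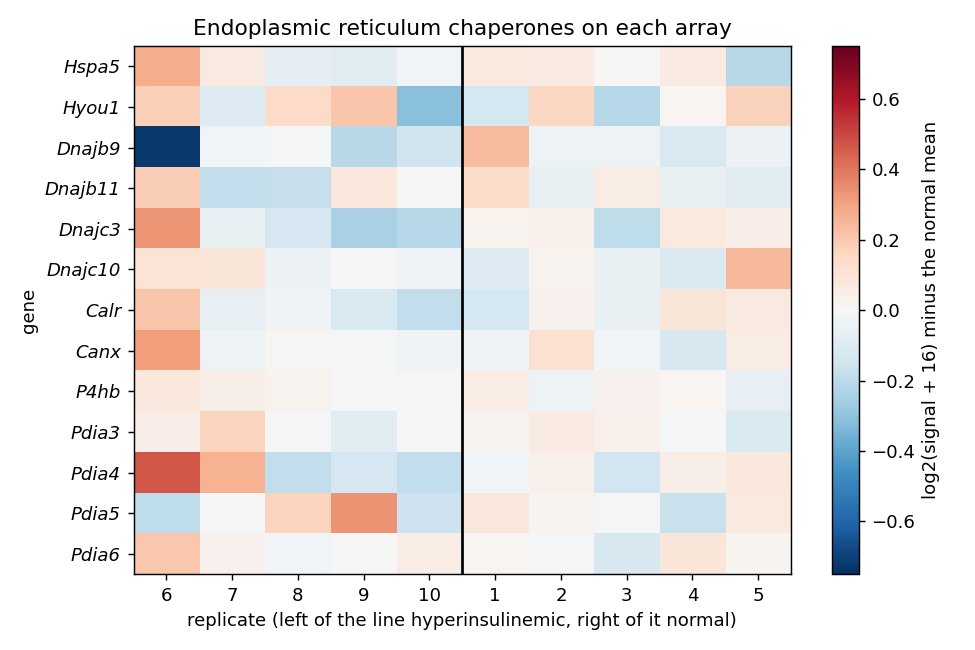
Log2(signal + 16) of the 13 endoplasmic reticulum chaperones on each array minus the mean of the normal samples (colour, red above and blue below), hyperinsulinemic replicates left of the line and normal replicates right of it. Hyperinsulinemic replicate 6 is red for most genes, with Dnajb9 as the deepest blue cell, and no other column is set apart in this way.

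The Hsp90 proteins carry symbols that the naming rule did not take, and are given only for context. Hsp90ab1, the constitutive cytosolic form, had log2 differences of 0.02 ± 0.07 and 0.08 ± 0.07 in its 2 probe sets. Hsp90b1, the form in the endoplasmic reticulum, had 1828 ± 197 in hyperinsulinemic and 1841 ± 119 in normal samples (SD, n = 5 each), a difference of −0.01 ± 0.07.

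Genes that regulate or assist the chaperones also gave no difference past the adjusted threshold. Of 99 genes in 5 lists, 83 were tested and 0 passed the limma test after adjustment in either direction, with 40 above 0 and 43 below. Heat shock factors and cytosolic co-chaperones had 19 tested genes with a median of 0.04. Hsf1, the master factor of the heat shock response, had 302 ± 38.6 in hyperinsulinemic and 289 ± 35.3 in normal samples, a log2 difference of 0.06 ± 0.09, and Hsf2 had 0.07 ± 0.10. Prefoldin and tubulin cofactors, which work with the Cct ring, had 11 tested genes, 2 above 0 and 9 below, with a median of −0.07.

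The unfolded protein response had 22 tested genes, 11 on each side of 0, with a median of −0.00. Xbp1, its factor activated by splicing, had 856 ± 42.7 in hyperinsulinemic and 858 ± 77.8 in normal samples, a log2 difference of −0.00 ± 0.07. Atf4 had −0.02 ± 0.05 and Ddit3, a late target in stressed cells, −0.19 ± 0.15 (SE, limma adjusted p = 0.973). Array signals of whole transcripts do not measure splicing of Xbp1 or translation of Atf4. Atf6b, a membrane-bound factor of the same response, had 193, 169, 198, 200.4 and 199 in hyperinsulinemic samples, against 124, 179, 161, 121 and 195 in normal samples. Of the hyperinsulinemic samples 3 lay above all normal samples. The log2 difference was 0.29 ± 0.12 (SE, limma adjusted p = 0.918).

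Other endoplasmic reticulum folding enzymes had 19 tested genes with a median of 0.00, and mitochondrial protein quality control had 12 with a median of −0.03. In the mitochondrial list Clpx, the unfoldase that feeds the protease Clpp, had 476, 440.2, 472.5, 406 and 401 in hyperinsulinemic samples, against 492, 474, 493, 486 and 494 in normal samples. Of the hyperinsulinemic samples 4 lay below all normal samples and replicate 6 lay above the lowest of them. The log2 difference was −0.15 ± 0.06 (SE, limma adjusted p = 0.918). Atf6b and Clpx were the only 2 of the 83 tested genes of the 5 lists at an unadjusted limma p under 0.05, beside 5.36% of all tested probe sets.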

How the data were processed

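Total RNA of 10 fetal rat kidney samples was measured on 1-colour Affymetrix arrays, 1 array a sample, and grouped by the mother's treatment in the labels. The deposited values were linear intensity values made by the authors with MAS5, per the submitters' processing notes, and its version and settings are not given in the sources used here. MAS5 scales each array: the mean of the signals was 250 on every array with 2% trimmed at each end. Gene symbols came from GEO's platform annotation, and names and promoters from RefSeq (GRCr8). All 74 chaperone genes matched by Entrez identifier. Probe sets annotated with several symbols were not used, which left out 2 with a chaperone symbol.

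Signals were used as log2(signal + 16), and the 57 control probe sets were left out. The difference of hyperinsulinemic minus normal was fitted over 9601 probe sets with limma 3.58.1 (R 4.3.3; lmFit, then eBayes with an intensity trend). Its two-sided p-values were Benjamini-Hochberg adjusted and read at 0.05. The fit was tested on simulated data. Correlations used 100000 permutations. Of 7 planned pairs, 4 could be computed. Figures were drawn with matplotlib 3.10.9. The number of arrays limits the precision.

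The members, gene lists and tests were chosen with earlier results of these data known. Values are given for members at an unadjusted p under 0.05, for genes with an array set apart, for a fixed set of main chaperones, and for the leading regulators. Hsph1 and Cct7 belong to that set; Hspbap1, Dnajc1, Dnajc5, Dnajc6, Dnajc15, Hspa1l, Hspa12a and the smaller family members were added after their values were seen. Alternatives changed the scaling, pseudocount, filter, variance model, covariates and the arrays included.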

Additional observations from a re-analysis of the deposited data

Results flagged for a closer look

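In 12 of the 122 groups of 5 arrays checked (61 genes, each in both groups), 1 array stood far from the other 4 by Dixon's test, which flags about 1 in 20 groups by chance. The count is 4 for hyperinsulinemic replicate 6, 2 each for normal replicates 1 and 5, and 1 each for hyperinsulinemic replicates 9 and 10 and normal replicates 3 and 4. The share flagged over all tested genes was not computed, so these counts are not read as a trait of the chaperones. Hyperinsulinemic replicate 6 was the highest array for 15.2% and the lowest for 17% of all tested probe sets.

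Hyperinsulinemic replicate 6 was high for Canx (2041, the others 1602 to 1651), Dnajc14 (411, the others 267 to 296) and Dnajc3 (179, the others 116 to 133), and low for Dnajc22 (107, the others 141 to 153). Hyperinsulinemic replicate 10 was high for Tcp1 (2868, the others 2087 to 2204). Hyperinsulinemic replicate 9 was high for Hspb7 (157, the others 95.8 to 112).

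Among normal samples, replicate 1 was high for Dnajb9 (274, the others 211 to 224) and for Dnajc27 (137, the others 111 to 117). Normal replicate 3 was low for Dnajc3 (120.5, the others 142 to 148) and replicate 4 was low for Hspa1a (108, the others 172 to 183). Normal replicate 5 was high for Bag1 (568, the others 475 to 496) and low for Hspa5 (1443, the others 1677 to 1760).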

How the results depend on the processing

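Under all 23 alternatives 0 chaperone probe sets passed the adjusted threshold by limma or by the exact rank test. The median log2 difference of the chaperone genes stayed between 0.02 and 0.04 leaving out 1 array in turn and in the 11 other settings that give a median. The number at an unadjusted p under 0.05 that were higher was 1 (2.44% of all tested probe sets). It was 2 with quantile normalization (2.54%), without a filter (2.46%), with the liver score as covariate (2.65%) or without the 2 arrays with most albumin signal (3.27%). It was 3 with the Gapdh 3' to 5' ratio as covariate (2.73%), 4 with array weights (3.41%) and 0 with a filter at the 60th percentile (2.61%), which no longer tested Dnajc27. Leaving out 1 array gave 1 to 4 (1.74% to 2.77%). The number that were lower was 2 (2.93%). It was 3 with the liver score as covariate (2.54%), 1 without the 2 albumin-rich arrays (3.21%), 0 by the exact rank test (1.93%), and 1 to 2 leaving out 1 array (2.04% to 3.46%). The number of probe sets whose groups did not overlap was 0 (1.04% of all tested probe sets), and 0 to 3 leaving out 1 array. It was 2 without hyperinsulinemic replicate 9 (Cct7 and Dnajc27) and 1 without normal replicate 1 (Dnajc27). Without hyperinsulinemic replicate 10 it was 3 (Cryab, Tcp1 and Cct6a). The share of all tested probe sets with an array left out is not given here. Smaller groups also separate more easily, so these counts are not read as a trait of the chaperones. For the regulator and helper lists the number at an unadjusted p under 0.05 was 2 of 83 (5.36% of all tested probe sets), 5 without the 2 albumin-rich arrays (6.48%), and 1 to 7 leaving out 1 array (3.78% to 6.12%), with 7 without hyperinsulinemic replicate 10. Beyond the filter, the cause of these moves was not tested.

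For 33 named genes, 0 of 754 values under alternatives passed the adjusted threshold, and the smallest adjusted p was 0.223 (Cryab). In 20 of these genes 67 values changed sign without passing. The sign of a gene near 0 is therefore not a result, also where it is counted above or below 0. No paired analysis was possible because the groups share no replicate numbers (1 to 5 and 6 to 10). Signals of the 23 below-filter probe sets were at most 108.6, and differences there were not tested.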
